A study of Homo sapiens with 21 samples.

Results

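The mitochondrial import, chaperone and protease genes described here are 40 nuclear genes whose proteins move other proteins into the mitochondrion, fold them there or cut and degrade them. The list was drawn up by name, with earlier results of these data known, and no measured value enters its rule: each listed symbol was matched to its Ensembl row, and all 40 were found among the 54042 rows of the count table. The set holds 8 TOMM genes, named for the translocase of the outer membrane, 12 TIMM genes of the inner membrane and the space between the membranes, 8 chaperones and co-chaperones, 10 proteases and 2 prohibitins. Of the 40 genes, 37 passed the low-count filter and were tested. TOMM6 and TIMM23 were listed at 0 counts in all 21 libraries, and HTRA2 had 44 counts over all of them, so nothing is said of a change in these 3. A count of 3, used here as the detection floor, corresponded to between 0.498 and 0.803 CPM.

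Transcript ends were counted in the human MV4-11 cell line, which came from a leukaemia with both B-cell and myelomonocytic traits. Wild type cells received ironomycin, a small molecule also called AM5, for 6 h or for 24 h, or the solvent DMSO. Cells with a CRISPR knockout of HK2, the hexokinase that traps glucose in the cell, received ironomycin for 24 h or DMSO. Cells with a CRISPR knockout of PGP, a phosphatase that removes toxic by-products of metabolism, likewise received ironomycin for 24 h or DMSO. Each of the 7 groups had 3 libraries. How long DMSO was applied is not in the labels, so ironomycin and time in culture cannot be told apart, nor do the labels say whether a knockout line was a single clone. They also leave it unsaid whether the replicates were separate cultures, and p-values then cover only the spread between these libraries, which may be technical.

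Mitochondria make few of their own proteins and import the rest. A precursor passes the TOM complex in the outer membrane, and the TIM complexes then place it in the inner membrane or hand it to the matrix, where chaperones fold it and proteases remove what stays misfolded. When misfolded proteins build up in the matrix, cells can raise the nuclear genes of these chaperones and proteases, a programme known as the mitochondrial unfolded protein response. HSPD1, HSPE1, LONP1, CLPP and CLPX are its classical readouts, and in mammals it has been linked to the transcription factors ATF5, ATF4 and DDIT3 (CHOP) and to HSF1.

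Libraries held between 3829274 and 6069264 counts (median 4823817), and 11610 genes were tested. Levels are library-scaled counts (CPM, with TMM factors), and differences are log2 values ± SE from edgeR's quasi-likelihood fit. The call threshold was a Benjamini-Hochberg adjusted p below 0.05, with all tested genes in the adjustment. Myelomonocytic markers summed to between 459 and 762 CPM, 9 of 10 being tested. The 5 B-lymphoid markers summed to between 7.0 and 16.1 CPM over the 24 h libraries of the 3 genotypes, against between 24.1 and 63.9 CPM in DMSO, and their part in the results at 24 h was not tested. The 9 markers of other cell types summed to between 4.16 and 18.1 CPM, and EPCAM and PECAM1 were among those at 0 counts throughout. The HK2 transcript averaged 22.0 ± 2.49 CPM in the HK2 knockout and 52.6 ± 14.7 CPM in wild type cells, and PGP 75.4 ± 7.10 CPM in the PGP knockout and 90.6 ± 4.49 CPM in wild type cells, all in DMSO (SD, n = 3). Since an edit need not lower a 3′ tag, these levels check neither knockout. Replicate 2 of wild type cells at 6 h stood apart from its group, with an SD of 0.675 in log2 from the mean of the other replicates, against 0.332 to 0.480 in all other libraries. Its members had a median deviation of -0.22, with 17 of 37 above the others, where all genes tested had 0.00. In bulk RNA, fewer cells of a type and less RNA per cell cannot be told apart, and levels here are relative to the rest of the library.

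Under ironomycin most of the members that changed were lower, and 1 was higher. In wild type cells at 24 h, 1 of the 37 members tested was called higher and 16 were called lower, against 29.8% of all genes called in either direction and 14.6% called lower. At 6 h, 1 was called higher and 14 lower, against 22.0% of all genes in either direction and 11.1% lower. In the HK2 knockout at 24 h, 1 was called higher and 16 lower, against 29.4% and 13.5% of all genes. In the PGP knockout at 24 h, 1 was called higher and 16 lower, against 31.5% and 15.4% of all genes. The members' median log2 difference was -0.22 at 6 h and -0.34 at 24 h in wild type cells, -0.34 in the HK2 knockout and -0.28 in the PGP knockout. All genes tested had medians between 0.02 and 0.04 in the same comparisons. The summed level of the set showed the same fall: it was 4416 ± 255 CPM at 6 h, 4002 ± 148 CPM at 24 h and 5517 ± 95.2 CPM in DMSO in wild type cells. It was 4078 ± 116 CPM at 24 h and 5333 ± 98.6 CPM in DMSO in the HK2 knockout, and 4015 ± 229.9 CPM at 24 h and 5647 ± 226 CPM in DMSO in the PGP knockout (SD, n = 3 each).

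The 3 comparisons at 24 h use different libraries throughout, and 15 members were called in all of them in the same direction. LONP1 was higher in all 3 genotypes, where 9.91% of all genes tested were. The 14 that were lower in all 3 genotypes, against 9.66% of all genes, were TOMM22, TOMM34, TOMM40, TIMM8A, TIMM8B, TIMM10, TIMM13, TIMM21, TIMM22, TIMM50, HSPD1, HSPE1, GRPEL1 and PMPCA.

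**Figure D1:**
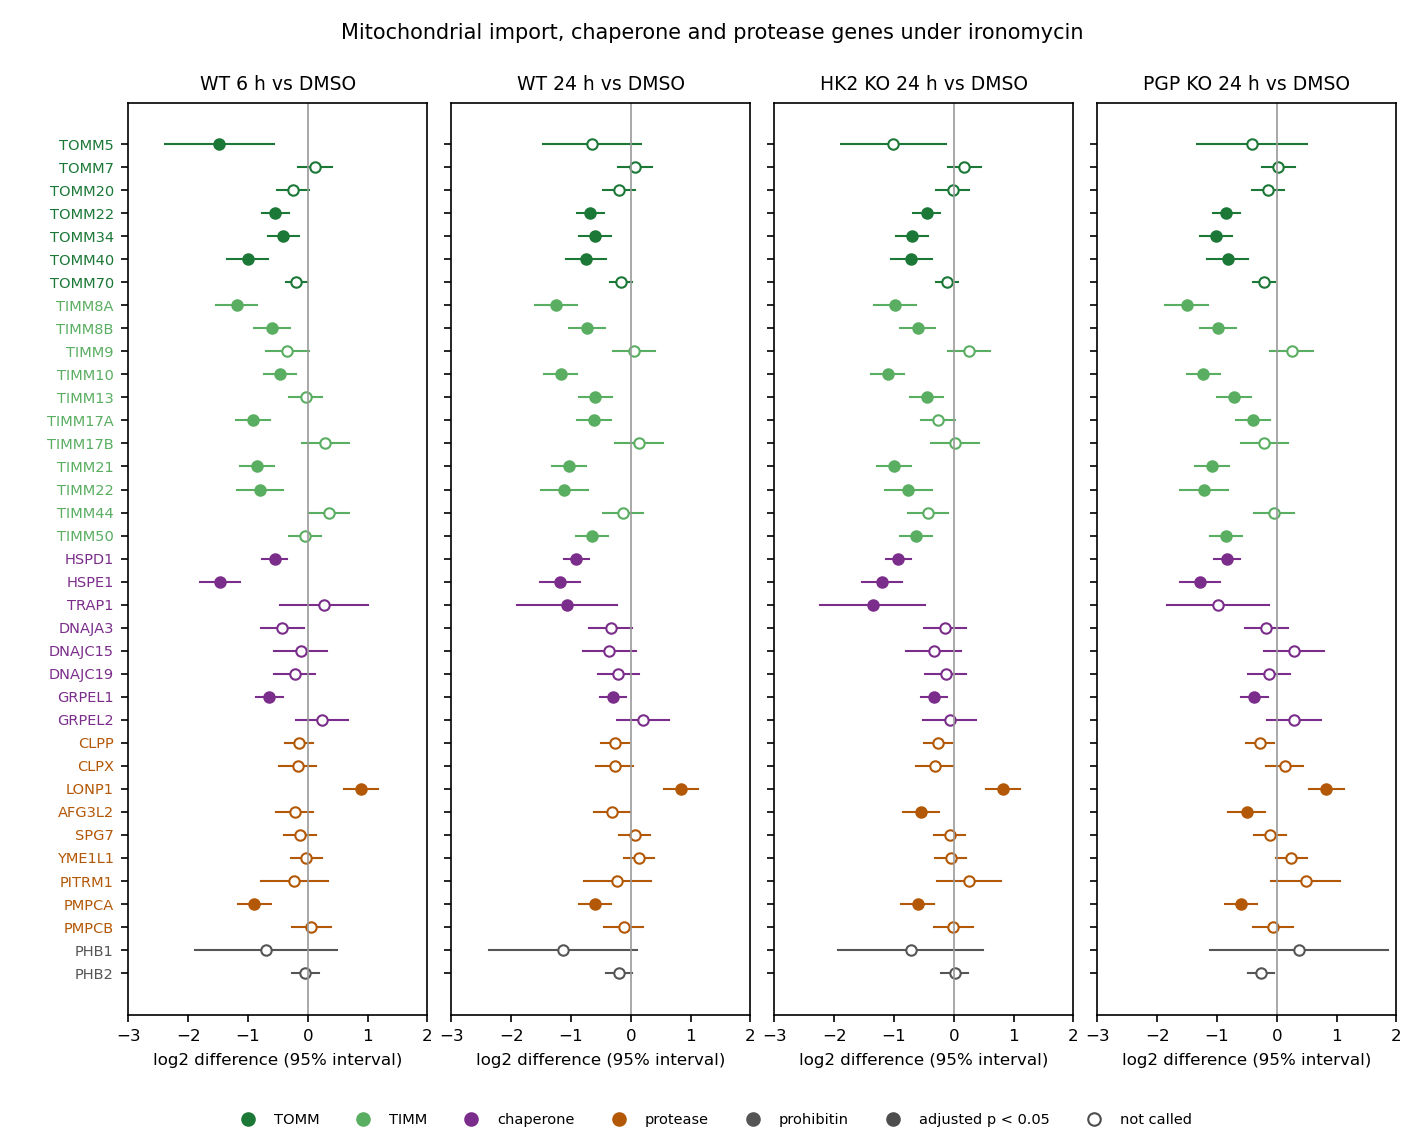
Log2 difference between ironomycin and DMSO for the 37 tested members, ordered by role, in 4 comparisons of 3 against 3 libraries. Points are edgeR estimates, bars are 95% intervals, and filled points have an adjusted p below 0.05. LONP1 lies to the right of 0 in all 4 panels, while HSPD1, HSPE1 and most TIMM genes lie to the left.

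Among the classical readouts, LONP1 was higher, HSPD1 and HSPE1 were lower, and CLPP and CLPX were called in none of the 4 comparisons with DMSO. LONP1 encodes the ATP-driven protease that degrades damaged proteins in the matrix. Its level was 88.6, 131 and 97.9 CPM at 6 h, 116, 96.8 and 93.7 CPM at 24 h, and 62.6, 52 and 55.7 CPM in DMSO in wild type cells. It was 97.1, 114 and 88.6 CPM at 24 h and 55.8, 54.2 and 60 CPM in DMSO in the HK2 knockout. It was 102, 107 and 105 CPM at 24 h and 52.7, 59.3 and 64.7 CPM in DMSO in the PGP knockout. Every treated library lay above every DMSO library of its genotype. The log2 difference was 0.90 ± 0.14 at 6 h (edgeR adjusted p = 6.63e-05) and 0.85 ± 0.14 at 24 h (6.06e-05) in wild type cells, 0.82 ± 0.14 in the HK2 knockout (1.06e-04) and 0.83 ± 0.14 in the PGP knockout (8.25e-05). As a fold change this was between 1.76 and 1.86. The 24 h level was close to that at 6 h, with a log2 difference of -0.05 and a 95% interval of -0.33 to 0.23.

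HSPD1 encodes the matrix chaperonin, a barrel in which imported proteins fold, and HSPE1 encodes the lid that closes it. HSPD1 stood at 619, 648 and 577 CPM at 6 h, 509, 469 and 460.3 CPM at 24 h, and 942, 915 and 849 CPM in DMSO in wild type cells. It stood at 452, 524 and 405 CPM at 24 h and 821, 935 and 869.8 CPM in DMSO in the HK2 knockout, and at 467, 547 and 471 CPM at 24 h and 916, 849 and 879 CPM in DMSO in the PGP knockout. No treated library reached the lowest DMSO library of its genotype. The log2 difference was -0.55 ± 0.10 at 6 h (edgeR adjusted p = 4.27e-04), -0.91 ± 0.10 at 24 h (5.91e-07), -0.93 ± 0.10 in the HK2 knockout (6.46e-07) and -0.83 ± 0.10 in the PGP knockout (2.04e-06).

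HSPE1 stood at 188, 113 and 193 CPM at 6 h, 178, 221 and 203 CPM at 24 h, and 473, 442 and 454 CPM in DMSO in wild type cells. It stood at 193, 153 and 192 CPM at 24 h and 368, 415 and 454 CPM in DMSO in the HK2 knockout, and at 166, 180.4 and 230.3 CPM at 24 h and 431, 443 and 537 CPM in DMSO in the PGP knockout. Here too the groups did not overlap within a genotype. The log2 difference was -1.47 ± 0.16 at 6 h (edgeR adjusted p = 1.15e-06), -1.19 ± 0.16 at 24 h (7.45e-06), -1.20 ± 0.16 in the HK2 knockout (8.13e-06) and -1.29 ± 0.16 in the PGP knockout (2.9e-06). At 6 h it was the called member with the smallest adjusted p. Both genes have many processed pseudogenes of similar sequence, and reads shared with those copies could have been counted elsewhere.

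CLPP is the barrel-shaped protease of the matrix, and CLPX the unfoldase that feeds it. CLPP was measured at 108, 125 and 101 CPM at 6 h, 99.2, 98 and 109 CPM at 24 h, and 114, 135 and 119 CPM in DMSO in wild type cells. Its levels were 102, 91.6 and 111 CPM at 24 h and 118, 131 and 116 CPM in DMSO in the HK2 knockout, and 103, 102 and 116 CPM at 24 h and 113, 141 and 136 CPM in DMSO in the PGP knockout. The 24 h and DMSO libraries overlapped in the PGP knockout and not in the other genotypes, and all 4 differences with DMSO were below 0. They lay between -0.28 and -0.14, with edgeR adjusted p of 0.0642 in the PGP knockout, 0.0816 in wild type cells at 24 h, 0.0939 in the HK2 knockout and 0.397 at 6 h. In the PGP knockout, where libraries with equal replicate numbers deviated together from their groups, the difference of -0.28 passed with the replicate block (edgeR adjusted p = 0.0476). It also passed with DESeq2 (adjusted p = 0.0468) and, in edgeR, without DMSO replicate 1 (0.0221) or 24 h replicate 3 (0.0455), and in none of the other alternatives.

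CLPX was measured at 51.4, 37.8 and 42.9 CPM at 6 h, 45.0, 37.7 and 40.6 CPM at 24 h, and 52.4, 48.8 and 47.4 CPM in DMSO in wild type cells. Its levels were 43.2, 36 and 47.5 CPM at 24 h and 58, 50.6 and 50.2 CPM in DMSO in the HK2 knockout, and 55.9, 41.6 and 40.9 CPM at 24 h and 48.7, 41.2 and 36.9 CPM in DMSO in the PGP knockout. The 24 h and DMSO libraries were apart in wild type cells and in the HK2 knockout and overlapped in the PGP knockout. The log2 differences were -0.17 ± 0.15 at 6 h, -0.27 ± 0.15 at 24 h, -0.32 ± 0.15 in the HK2 knockout and 0.13 ± 0.15 in the PGP knockout (edgeR adjusted p = 0.444, 0.182, 0.108 and 0.549). The upper ends of the 95% intervals for CLPP and CLPX in the comparisons with DMSO lay between -0.05 and 0.44, all below the lower end of the interval for LONP1 in the same comparison, which was between 0.53 and 0.61.

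**Figure D2:**
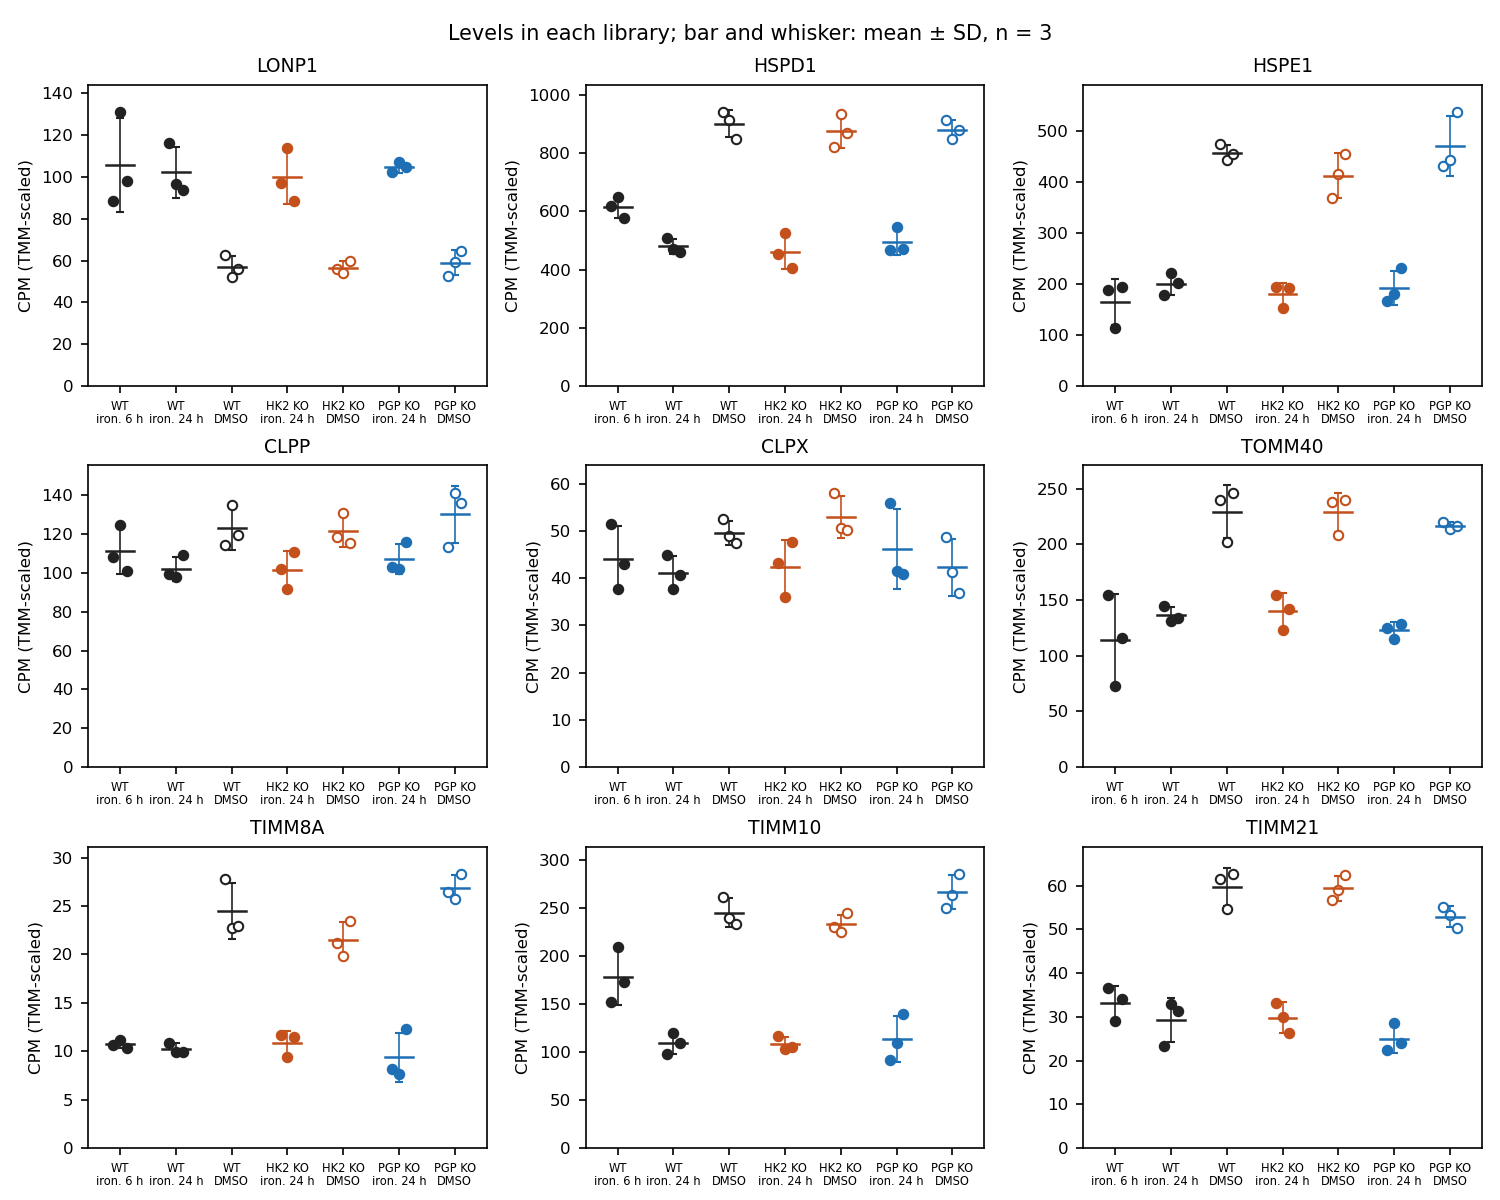
CPM of 9 members in each of the 21 libraries, with each genotype's ironomycin groups to the left of its DMSO group; bars and whiskers are mean ± SD of 3 libraries and every axis starts at 0. LONP1 is higher in the treated libraries, HSPD1, HSPE1, TOMM40, TIMM8A, TIMM10 and TIMM21 are lower, and the CLPP and CLPX groups lie close to each other.

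The promoters of these genes are shown because HSPD1 and HSPE1 lie head to head and fell together, LONP1 rose, and TIMM22 is a member that fell and holds a match to the motif linked to DDIT3. PMPCB, the other member with that match, was not called against DMSO and is not shown. Windows of 300 bases, from 250 before to 50 after an annotated start site, were taken from RefSeq on GRCh38.p14, which is not the hg19 build of the counts. Capitals mark matches, on either strand, to any of 5 motifs: the C/EBP-ATF composite TGATGNAA, the heat shock cores TTCNNGAA and GAANNTTC, the NRF1 palindrome (GCGC, any base, then TGCGC) and the MYC E-box CACGTG. The sequences run 5′ to 3′ on the strand of the gene.
HSPE1, chr2:197500129-197500428, plus strand: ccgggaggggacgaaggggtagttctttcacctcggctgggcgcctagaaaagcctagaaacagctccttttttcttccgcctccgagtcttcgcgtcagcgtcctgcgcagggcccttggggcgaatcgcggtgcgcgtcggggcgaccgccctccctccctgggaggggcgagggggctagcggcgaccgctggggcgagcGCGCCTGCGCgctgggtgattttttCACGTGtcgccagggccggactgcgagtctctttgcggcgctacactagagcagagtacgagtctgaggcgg
HSPD1 window 1, chr2:197499791-197500090, minus strand: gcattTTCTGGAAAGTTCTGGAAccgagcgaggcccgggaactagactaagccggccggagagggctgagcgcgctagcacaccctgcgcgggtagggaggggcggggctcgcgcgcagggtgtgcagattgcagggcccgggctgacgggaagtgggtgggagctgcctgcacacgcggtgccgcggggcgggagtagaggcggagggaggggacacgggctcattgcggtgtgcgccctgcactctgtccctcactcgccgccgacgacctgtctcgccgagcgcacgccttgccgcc
LONP1 window 1, chr19:5720097-5720396, minus strand: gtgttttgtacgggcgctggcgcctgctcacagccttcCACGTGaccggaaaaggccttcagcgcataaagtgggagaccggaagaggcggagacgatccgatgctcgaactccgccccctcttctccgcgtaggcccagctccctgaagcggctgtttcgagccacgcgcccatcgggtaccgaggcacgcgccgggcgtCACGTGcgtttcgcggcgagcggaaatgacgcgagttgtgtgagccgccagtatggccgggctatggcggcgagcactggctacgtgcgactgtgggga
LONP1 window 2, chr19:5720403-5720702, minus strand: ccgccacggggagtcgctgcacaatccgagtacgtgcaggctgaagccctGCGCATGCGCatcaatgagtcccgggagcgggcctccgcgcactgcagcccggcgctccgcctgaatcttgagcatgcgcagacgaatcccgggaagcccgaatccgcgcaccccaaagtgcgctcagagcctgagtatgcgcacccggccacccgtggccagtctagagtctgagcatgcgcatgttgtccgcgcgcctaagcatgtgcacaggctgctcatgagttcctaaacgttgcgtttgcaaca
TIMM22, chr17:996879-997178, plus strand: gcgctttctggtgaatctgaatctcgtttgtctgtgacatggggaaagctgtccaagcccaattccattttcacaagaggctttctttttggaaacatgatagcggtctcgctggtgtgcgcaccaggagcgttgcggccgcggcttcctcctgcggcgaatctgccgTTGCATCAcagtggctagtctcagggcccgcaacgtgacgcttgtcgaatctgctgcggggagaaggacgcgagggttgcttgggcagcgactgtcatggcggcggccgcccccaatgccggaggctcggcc

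Positions are counted from the start-site base at 0. The HSPE1 window held the NRF1 palindrome at -47 and the E-box at -22. The RefSeq start site of HSPE1 lies 105 bases from the second one of HSPD1, whose own window shares 204 bases with it and so holds both of these matches as well. The window of the other HSPD1 start held 3 heat shock cores, at -245, -240 and -235, which overlap each other and form 1 array of alternating TTC and GAA. LONP1 held an E-box at -212 and at -49 in its window 1 and the NRF1 palindrome at -200 in its window 2, and neither C/EBP-ATF composite nor heat shock core in either.

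Windows were found for 35 of the 40 members. The C/EBP-ATF composite was present in 2 of them, TIMM22 and PMPCB, or 2 of 35, where 4.46% of all genes with windows held it. The heat shock core TTCNNGAA was present in 5 of 35 (9.46% of all genes) and GAANNTTC in 1 of 35, HSPD1 (8.21%). The NRF1 palindrome was present in 11 of 35 (6.98% of all genes), and the E-box in 6 of 35 (8.77%). These shares cover all 27305 genes with windows, whether tested here or not, and were not matched for base content. No enrichment is read from them. The 11 with the NRF1 palindrome included LONP1, which rose, HSPD1, HSPE1, TOMM34 and TOMM40, which fell, and CLPX, DNAJA3, GRPEL2, SPG7, TOMM7 and TOMM20, which were not called against DMSO. A match describes these letters in these windows and says nothing of binding.

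**Figure D3:**
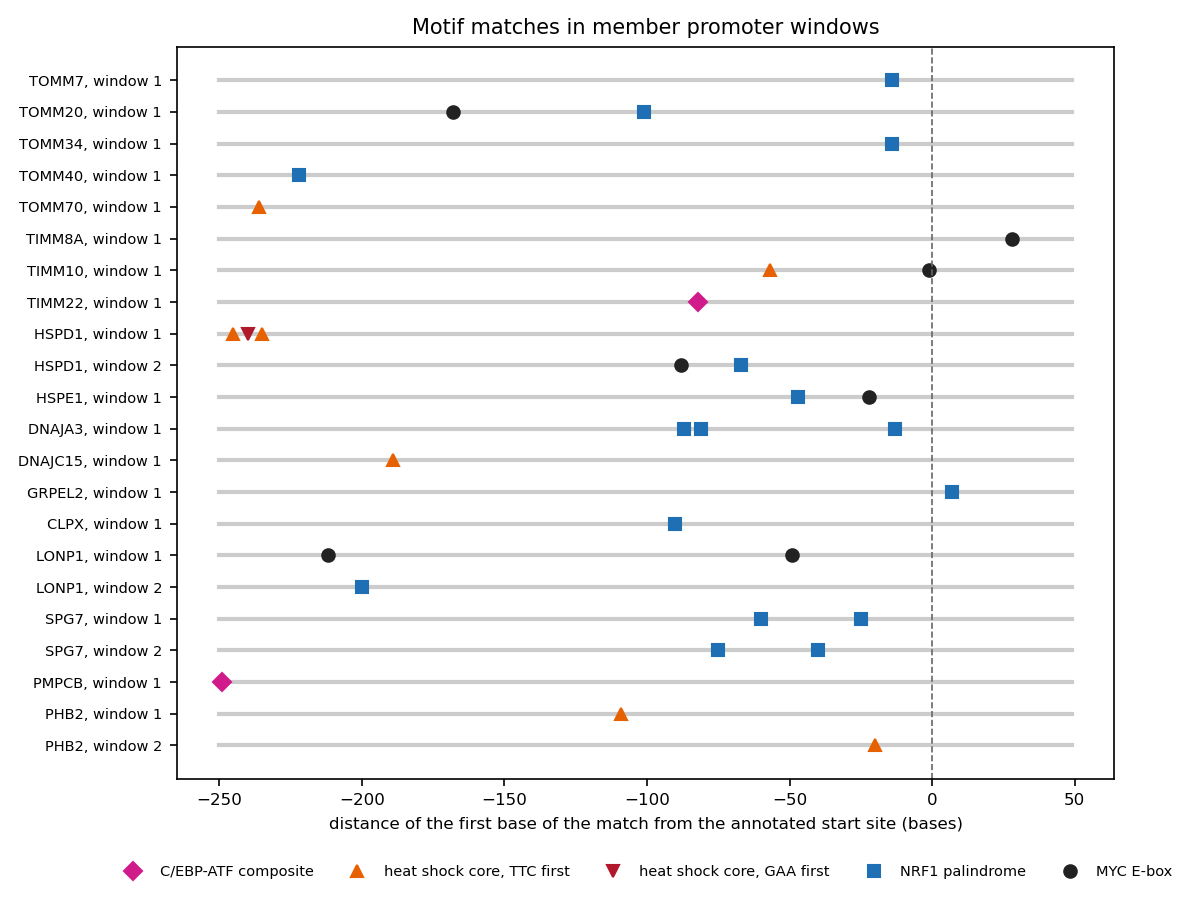
Positions of the motif matches in the 300-base promoter windows of the members that hold any, as distance in bases of the first base of a match from the annotated start site (dashed line at 0). Grey lines are the windows, and marker shape and colour give the motif. The 3 heat shock cores of HSPD1 lie together near the far end of its window 1.

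In the outer membrane, the receptor and pore genes of the TOM complex split. TOMM22 (the central receptor), TOMM40 (the pore) and TOMM34 (a cytosolic helper that binds precursors) were called lower in all 4 comparisons with DMSO, while TOMM7 (a small subunit), TOMM20 and TOMM70 (receptors for precursors) were called in none. TOMM40 stood at 155, 72.5 and 115 CPM at 6 h, 145, 131 and 134 CPM at 24 h, and 239.5, 202 and 246 CPM in DMSO in wild type cells. Its libraries did not overlap between treatment and DMSO in any genotype, and the lowest of them was replicate 2 at 6 h. Its log2 difference was -1.01 ± 0.17 at 6 h, -0.75 ± 0.16 at 24 h, -0.71 ± 0.16 in the HK2 knockout and -0.82 ± 0.17 in the PGP knockout (edgeR adjusted p between 1.4e-04 and 0.0023). TOMM22 differed by -0.54 ± 0.11, -0.67 ± 0.11, -0.45 ± 0.11 and -0.84 ± 0.11 in the same order (edgeR adjusted p between 3.91e-06 and 0.00286). TOMM34 differed by -0.41 ± 0.13, -0.59 ± 0.13, -0.70 ± 0.13 and -1.01 ± 0.13 (edgeR adjusted p between 3.47e-06 and 0.0235). TOMM5, another small subunit, was called lower at 6 h at -1.48 ± 0.44 (edgeR adjusted p = 0.0154), on 5 to 46 counts per library, and that call was lost without replicate 2 at 6 h (-1.20, edgeR adjusted p = 0.0684). TOMM7 averaged 617 ± 91.5 CPM at 24 h and 587 ± 43.0 CPM in DMSO in wild type cells (SD, n = 3), with log2 differences between 0.03 and 0.18 over the 4 comparisons. TOMM20 and TOMM70 had differences between -0.25 and -0.02. With the replicate block TOMM70 was called lower in the PGP knockout (-0.22, edgeR adjusted p = 0.0477, against 0.0624 without the block), as it was with DESeq2 (0.026), with RLE size factors (0.0479), and without DMSO replicate 1 (0.0416) or 24 h replicate 3 (0.0178).

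Of the 11 TIMM genes tested, 6 were called lower at 6 h and 8 at 24 h in wild type cells, 7 in the HK2 knockout and 8 in the PGP knockout, and none was called higher. The shares of all genes called lower in these comparisons were 11.1%, 14.6%, 13.5% and 15.4%. Their median log2 difference was -0.46 at 6 h, -0.64 at 24 h, -0.60 in the HK2 knockout and -0.84 in the PGP knockout. Their summed level was 1095 ± 185 CPM at 6 h, 812 ± 39.4 CPM at 24 h and 1295 ± 43.7 CPM in DMSO in wild type cells (SD, n = 3). TIMM23, the channel of the presequence translocase, was at 0 counts as said, and it has a near-identical copy, TIMM23B, with which reads would be shared.

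The small chaperones of the intermembrane space, which ferry hydrophobic precursors across it, did not move as 1 group. TIMM10, the partner of TIMM9, stood at 152, 209 and 173 CPM at 6 h, 97.8, 119.8 and 109 CPM at 24 h, and 262, 239.6 and 233 CPM in DMSO in wild type cells. In the HK2 knockout TIMM10 stood at 116, 103 and 105 CPM at 24 h and 229.9, 225 and 244 CPM in DMSO, and in the PGP knockout at 91.9, 109 and 139 CPM at 24 h and 249.9, 263 and 285 CPM in DMSO. In wild type cells its 24 h libraries were all below its 6 h libraries, and these were all below DMSO. Its log2 difference from DMSO was -0.46 ± 0.13 at 6 h (edgeR adjusted p = 0.0138), -1.17 ± 0.13 at 24 h (6.5e-07), -1.11 ± 0.13 in the HK2 knockout (1.67e-06) and -1.23 ± 0.13 in the PGP knockout (3.55e-07). TIMM9 was not called in any of the 4, with differences between -0.34 and 0.25. Beside TIMM10, TIMM9 averaged 32.8 ± 4.43 CPM at 24 h and 31.6 ± 0.436 CPM in DMSO in wild type cells (SD, n = 3).

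TIMM13 forms the other hexamer with TIMM8A or TIMM8B. Its level was 352, 500.5 and 309.9 CPM at 6 h, 258, 275 and 252 CPM at 24 h, and 431, 388 and 369 CPM in DMSO in wild type cells. It was 283, 281 and 240.4 CPM at 24 h and 393, 355 and 352 CPM in DMSO in the HK2 knockout, and 240.4, 269 and 283 CPM at 24 h and 394, 431 and 477 CPM in DMSO in the PGP knockout. At 6 h, replicates 1 and 3 lay below all DMSO libraries, and replicate 2, which stood apart from its group, lay above them. The 24 h libraries lay below DMSO. The log2 difference was -0.03 ± 0.13 at 6 h (edgeR adjusted p = 0.892), -0.60 ± 0.13 at 24 h (0.00153), -0.45 ± 0.13 in the HK2 knockout (0.0129) and -0.72 ± 0.13 in the PGP knockout (2.58e-04).

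TIMM8A had 10.7, 11.1 and 10.3 CPM at 6 h, 10.9, 9.92 and 9.91 CPM at 24 h, and 27.8, 22.7 and 22.9 CPM in DMSO in wild type cells. It had 11.6, 9.36 and 11.5 CPM at 24 h and 21.2, 19.9 and 23.5 CPM in DMSO in the HK2 knockout, and 8.17, 7.67 and 12.3 CPM at 24 h and 26.5, 25.7 and 28.3 CPM in DMSO in the PGP knockout. Every treated library lay below the lowest DMSO library of its genotype. On the log2 scale the difference was -1.19 ± 0.17 at 6 h (edgeR adjusted p = 2.5e-05), -1.25 ± 0.17 at 24 h (5.52e-06), -0.99 ± 0.17 in the HK2 knockout (1.2e-04) and -1.51 ± 0.17 in the PGP knockout (6.85e-07).

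TIMM8B had 74.9, 107 and 90.2 CPM at 6 h, 78.3, 82.1 and 89.0 CPM at 24 h, and 129.7, 143 and 140.5 CPM in DMSO in wild type cells. It had 93.8, 82.0 and 88.6 CPM at 24 h and 137, 127 and 138 CPM in DMSO in the HK2 knockout, and 55.3, 83.2 and 91.2 CPM at 24 h and 142, 147 and 165 CPM in DMSO in the PGP knockout. All treated libraries lay below those in DMSO. Its log2 difference was -0.60 ± 0.14 at 6 h, -0.73 ± 0.14 at 24 h, -0.60 ± 0.14 in the HK2 knockout and -0.98 ± 0.14 in the PGP knockout (edgeR adjusted p between 2.02e-05 and 0.00436).

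In the inner membrane, TIMM22, TIMM21 and TIMM50 were lower and TIMM44 and TIMM17B were not called against DMSO. TIMM44 had the highest log2 difference of the TIMM genes at 6 h, at 0.35, and was called higher there with the replicate block. TIMM21, which joins the presequence translocase to the respiratory chain, had 36.5, 29.0 and 34.1 CPM at 6 h, 23.4, 32.9 and 31.3 CPM at 24 h, and 61.6, 54.7 and 62.7 CPM in DMSO in wild type cells. It had 33.2, 30.0 and 26.3 CPM at 24 h and 56.7, 58.9 and 62.5 CPM in DMSO in the HK2 knockout, and 22.4, 28.6 and 24.0 CPM at 24 h and 55.1, 53.3 and 50.3 CPM in DMSO in the PGP knockout. The groups were far apart, and the log2 difference was -0.84 ± 0.14 at 6 h (edgeR adjusted p = 1.06e-04), -1.03 ± 0.14 at 24 h (5.19e-06), -0.996 ± 0.14 in the HK2 knockout (9.85e-06) and -1.08 ± 0.14 in the PGP knockout (4.06e-06). TIMM22, the pore for carrier proteins, differed by -0.80 ± 0.19, -1.11 ± 0.19, -0.76 ± 0.19 and -1.22 ± 0.19 in the same order (edgeR adjusted p between 4.13e-05 and 0.0042).

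TIMM50, the receptor of the presequence translocase, had 137, 199.7 and 138 CPM at 6 h, 108, 100.4 and 105 CPM at 24 h, and 173, 168 and 148 CPM in DMSO in wild type cells. It had 109.9, 106 and 89.7 CPM at 24 h and 154, 157 and 161 CPM in DMSO in the HK2 knockout, and 89.6, 92.7 and 107 CPM at 24 h and 159, 189 and 171 CPM in DMSO in the PGP knockout. Like TIMM13, it overlapped with DMSO at 6 h and not at 24 h. For both genes that overlap came from replicate 2 at 6 h alone, the library that stood apart from its group. Replicates 1 and 3 of TIMM50 at 6 h, at 137 and 138 CPM, lay below the lowest DMSO library. Its log2 difference from DMSO was -0.04 ± 0.13 at 6 h (edgeR adjusted p = 0.847), -0.64 ± 0.13 at 24 h (5.42e-04), -0.63 ± 0.13 in the HK2 knockout (8.4e-04) and -0.84 ± 0.13 in the PGP knockout (3.2e-05).

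TIMM17A and TIMM17B are alternative core subunits of the presequence translocase. TIMM17A had 50.4, 42.8 and 57.2 CPM at 6 h, 53.8, 68.4 and 63.6 CPM at 24 h, and 96.5, 87.9 and 100.0 CPM in DMSO in wild type cells. It had 70.7, 58.3 and 66.3 CPM at 24 h and 74.6, 67.2 and 91.9 CPM in DMSO in the HK2 knockout, and 64.1, 61.1 and 72.3 CPM at 24 h and 89.6, 76.7 and 93.7 CPM in DMSO in the PGP knockout. The groups overlapped in the HK2 knockout and in no other genotype. The log2 difference was -0.92 ± 0.14 at 6 h (edgeR adjusted p = 5.1e-05), -0.61 ± 0.14 at 24 h (0.00136), -0.26 ± 0.14 in the HK2 knockout (0.164) and -0.39 ± 0.14 in the PGP knockout (0.0307). That last call was lost on leaving out any of 4 of its 6 libraries: DMSO replicates 1 and 3 (edgeR adjusted p = 0.0603 and 0.0929) and 24 h replicates 1 and 2 (0.0623 and 0.0834).

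TIMM17B had 14.1, 21.2 and 19.1 CPM at 6 h, 16.8, 15.9 and 16.1 CPM at 24 h, and 11.7, 17.7 and 14.9 CPM in DMSO in wild type cells. It had 14.2, 17.3 and 15.1 CPM at 24 h and 15, 15.3 and 15.8 CPM in DMSO in the HK2 knockout, and 14.0, 16.5 and 19.7 CPM at 24 h and 14.7, 21.2 and 21.9 CPM in DMSO in the PGP knockout. Its groups overlapped in every genotype, with log2 differences between -0.21 and 0.29 and no call.

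Of the 8 chaperones and co-chaperones, all tested, 3 were called lower at 6 h and 4 at 24 h in wild type cells, 4 in the HK2 knockout and 3 in the PGP knockout, where 11.1%, 14.6%, 13.5% and 15.4% of all genes were. None was called higher against DMSO. The class summed to 1029 ± 46.8 CPM at 6 h, 951 ± 7.90 CPM at 24 h and 1681 ± 41.2 CPM in DMSO in wild type cells (SD, n = 3), and most of these counts belonged to HSPD1 and HSPE1. TRAP1, the matrix member of the HSP90 family, had 3 to 36 counts per library. It was called lower at 24 h (-1.07 ± 0.41 in wild type cells, with an edgeR adjusted p of 0.0459, and -1.36 ± 0.42 in the HK2 knockout, with 0.015), and it differed by -0.98 ± 0.41 in the PGP knockout (0.0673). In wild type cells leaving out DMSO replicate 1 or 2 or 24 h replicate 1 or 3 ended the call (edgeR adjusted p = 0.163, 0.0906, 0.0563 and 0.21), and in the HK2 knockout leaving out DMSO replicate 2 or 24 h replicate 1 did (0.0522 and 0.0502). DNAJA3, a J-protein partner of the matrix HSP70, had differences between -0.43 and -0.15 and no call.

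GRPEL1 and GRPEL2 encode the nucleotide exchange factors of the matrix HSP70. GRPEL1 had 89.0, 105 and 85.7 CPM at 6 h, 126, 112 and 116 CPM at 24 h, and 147, 139 and 149.6 CPM in DMSO in wild type cells. It had 130.3, 110.5 and 102 CPM at 24 h and 146, 149 and 136 CPM in DMSO in the HK2 knockout, and 112, 113 and 114 CPM at 24 h and 161, 135 and 144 CPM in DMSO in the PGP knockout. All treated libraries lay below DMSO of their genotype, and in wild type cells the 6 h libraries lay lowest. On the log2 scale it differed by -0.64 ± 0.11 at 6 h (edgeR adjusted p = 1.7e-04), -0.30 ± 0.11 at 24 h (0.0372), -0.33 ± 0.11 in the HK2 knockout (0.0215) and -0.37 ± 0.11 in the PGP knockout (0.0101). The call at 24 h in wild type cells was lost without DMSO replicate 1 or 3 or 24 h replicate 2 or 3 (edgeR adjusted p between 0.0759 and 0.107), and that in the HK2 knockout without DMSO replicate 2 or 24 h replicate 2 or 3 (between 0.0644 and 0.0928).

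GRPEL2 had 42.9, 21 and 44.4 CPM at 6 h, 27.5, 37.5 and 40.4 CPM at 24 h, and 26.5, 29.4 and 35.7 CPM in DMSO in wild type cells. It had 33.5, 23.3 and 33.0 CPM at 24 h and 31.5, 30.9 and 31.9 CPM in DMSO in the HK2 knockout, and 28.3, 29.8 and 33.1 CPM at 24 h and 22.5, 27.2 and 24.8 CPM in DMSO in the PGP knockout. The groups overlapped in wild type cells and in the HK2 knockout, and were apart in the PGP knockout with the 24 h libraries higher. The differences were between -0.07 and 0.29 with no call. Without replicate 2 at 6 h, GRPEL2 was called higher at 6 h (0.51, edgeR adjusted p = 0.0359).

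DNAJC15 and DNAJC19 are related J-proteins of the inner membrane that act at the import motor. DNAJC15 had 16.9, 11.1 and 20.1 CPM at 6 h, 14.0, 9.92 and 16.9 CPM at 24 h, and 16.3, 16.9 and 19.1 CPM in DMSO in wild type cells. It had 9.73, 11.9 and 13.4 CPM at 24 h and 12.7, 16.0 and 15.6 CPM in DMSO in the HK2 knockout, and 11.1, 8.37 and 10.5 CPM at 24 h and 9.90, 7.44 and 7.46 CPM in DMSO in the PGP knockout. Treated and DMSO libraries overlapped in all 3 genotypes. DNAJC19 had 49.7, 32.1 and 52.9 CPM at 6 h, 40.9, 44.4 and 50 CPM at 24 h, and 51.2, 49.5 and 56.1 CPM in DMSO in wild type cells. It had 52, 38.5 and 59.8 CPM at 24 h and 51.6, 60.9 and 52.7 CPM in DMSO in the HK2 knockout, and 42.5, 40 and 44.6 CPM at 24 h and 47.3, 40.2 and 51.4 CPM in DMSO in the PGP knockout. These groups overlapped as well, and neither gene was called against DMSO.

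Of the 9 proteases tested, LONP1 was higher, PMPCA was lower in all 4 comparisons with DMSO, and AFG3L2 was lower in the knockouts. This came to 22.2% of the class at 6 h and at 24 h in wild type cells, and 33.3% in each knockout. Among all genes 22.0%, 29.8%, 29.4% (HK2 knockout) and 31.5% (PGP knockout) were called, so the class did not stand out in number of calls. The class summed to 525 ± 13.2 CPM at 6 h, 522 ± 20.3 CPM at 24 h and 526 ± 13.0 CPM in DMSO in wild type cells (SD, n = 3), so in wild type cells its total differed by less than the spread between replicates. In the HK2 knockout it summed to 518 ± 11.8 CPM at 24 h and 542 ± 7.10 CPM in DMSO, with no overlap, and in the PGP knockout to 544 ± 9.28 CPM at 24 h and 538 ± 16.5 CPM in DMSO, with overlap (SD, n = 3). PMPCA and PMPCB are the subunits of the peptidase that cuts off the targeting presequence after import. PMPCA had 29.7, 20.7 and 28.7 CPM at 6 h, 34.1, 32.9 and 29.7 CPM at 24 h, and 49.5, 46.3 and 51.1 CPM in DMSO in wild type cells. It had 33.2, 29.1 and 31.3 CPM at 24 h and 52.5, 41.8 and 48.4 CPM in DMSO in the HK2 knockout, and 30.4, 31.8 and 32.0 CPM at 24 h and 45.7, 49.9 and 47.0 CPM in DMSO in the PGP knockout. The groups did not overlap, and the log2 difference was -0.89 ± 0.13 at 6 h (edgeR adjusted p = 4.18e-05), -0.60 ± 0.13 at 24 h (0.00102), -0.61 ± 0.13 in the HK2 knockout (0.00116) and -0.60 ± 0.13 in the PGP knockout (0.00117).

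PMPCB had 71.1, 46.5 and 83 CPM at 6 h, 61.2, 56.1 and 60.7 CPM at 24 h, and 53.7, 68.2 and 71.0 CPM in DMSO in wild type cells. It had 65.3, 61.6 and 71.3 CPM at 24 h and 61.2, 66.0 and 72.5 CPM in DMSO in the HK2 knockout, and 65.6, 57.6 and 58.6 CPM at 24 h and 70.9, 63.9 and 55.1 CPM in DMSO in the PGP knockout. Its groups overlapped throughout, with differences between -0.12 and 0.06. AFG3L2, a subunit of the m-AAA protease of the inner membrane, differed by -0.55 ± 0.15 in the HK2 knockout (edgeR adjusted p = 0.00674) and -0.51 ± 0.15 in the PGP knockout (0.0113), and by -0.31 ± 0.15 in wild type cells at 24 h (0.118). The difference between the knockout responses and that of wild type cells was -0.24 ± 0.21 for the HK2 knockout and -0.20 ± 0.21 for the PGP knockout, and neither was called. SPG7 (the other m-AAA subunit), YME1L1 (the i-AAA protease) and PITRM1 (which degrades cleaved presequences) were not called, with SPG7 and YME1L1 between -0.13 and 0.24. The prohibitins, which form a ring scaffold in the inner membrane, were not called either. PHB2 had differences between -0.27 and 0.01, and with the replicate block it was called lower in the PGP knockout (-0.26, edgeR adjusted p = 0.0431, against 0.0619 without the block). The same held with DESeq2 (0.0401), with RLE size factors (0.0497), and without DMSO replicate 1 (0.0153) or 24 h replicate 3 (0.0493). PHB1 had 2 to 42 counts per library, too few for a narrow interval (-2.37 to 0.11 at 24 h in wild type cells). Over all libraries it had 314 counts, against 38259 for PHB2. Whether the low counts of PHB1, TRAP1, TOMM5 and HTRA2 and the 0 counts of TOMM6 and TIMM23 come from the annotation used for counting could not be checked.

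Several members are partners or alternatives of each other, and the log2 ratio of their counts within a library does not depend on the library's scaling. The change of the ratio between 24 h and DMSO was averaged over the 3 genotypes and set against an exact permutation test of labels within genotype (two-sided, 8000 arrangements, smallest possible p 0.00025), adjusted over the 4 pairs tested. The ratio and its test were added after the data had been seen. They use the same counts as the calls above, so their p-values lend those calls no separate support. TIMM8A/TIMM8B was lower in every genotype, with a change of -0.52 in wild type cells, -0.38 in the HK2 knockout and -0.53 in the PGP knockout, with no overlap in any (mean -0.47, exact permutation adjusted p = 0.001). GRPEL1/GRPEL2 changed by -0.49, -0.25 and -0.66 in the same order, the libraries overlapping in wild type cells and the HK2 knockout (mean -0.47, exact permutation adjusted p = 0.0045). TIMM17A/TIMM17B changed by -0.78, -0.27 and -0.20, the libraries overlapping in both knockouts (mean -0.41, exact permutation adjusted p = 0.0153). DNAJC15/DNAJC19 changed by -0.17 and -0.18 in wild type cells and the HK2 knockout and by 0.39 in the PGP knockout (mean 0.01, exact permutation adjusted p = 0.916). The remaining pairs were chosen because of the values above and are described with no test. PMPCA/PMPCB changed by -0.50, -0.59 and -0.54, with no overlap in any genotype, and HSPE1/HSPD1 changed by -0.28, -0.27 and -0.46, with overlap in both knockouts.

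**Figure D4:**
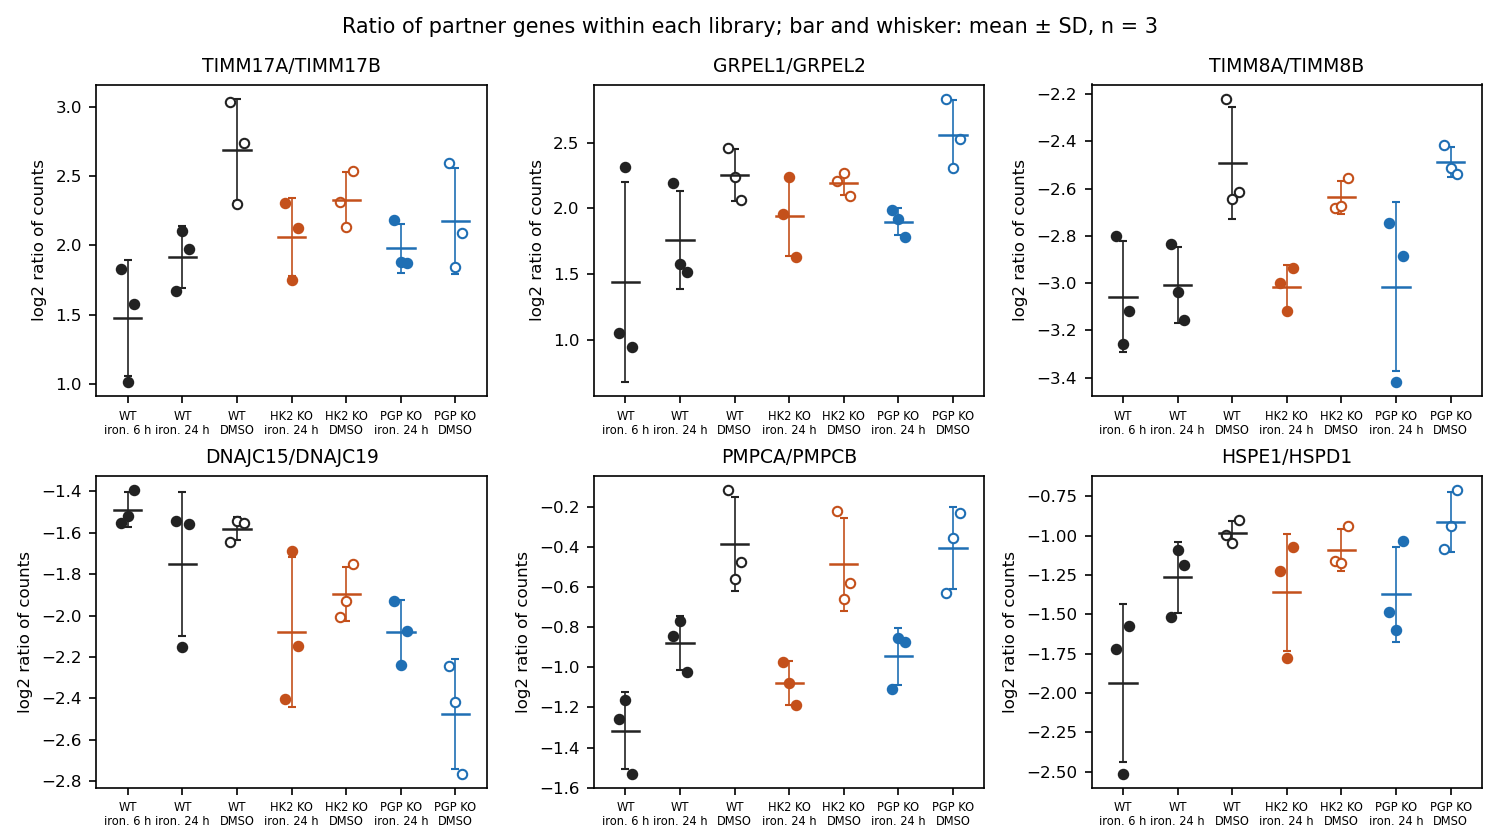
Log2 ratio of the counts of 6 pairs of partner or alternative genes in each of the 21 libraries, with bars and whiskers for mean ± SD of 3 libraries and axes that do not start at 0. TIMM8A/TIMM8B and PMPCA/PMPCB lie lower in every 24 h library than in every DMSO library of the same genotype.

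Between 24 h and 6 h in wild type cells, 1 member was called higher and 6 lower, against 16.6% of all genes called in either direction, 8.48% higher and 8.08% lower. This comparison has no DMSO pair for time. TIMM10 (-0.71 ± 0.13, edgeR adjusted p = 6.54e-04), TIMM50 (-0.60 ± 0.13, 0.00229) and TIMM13 (-0.56 ± 0.13, 0.00502) were lower at 24 h, as were HSPD1 (-0.36 ± 0.10, 0.018), TRAP1 (-1.35 ± 0.40, 0.0196) and TIMM44 (-0.49 ± 0.16, 0.0435), which encodes the anchor of the import motor. GRPEL1 was higher at 24 h than at 6 h (0.34 ± 0.11, edgeR adjusted p = 0.0325). Only TIMM10 among these 7 was also called when the 24 h and 6 h groups were fitted alone. Without replicate 2 at 6 h, TIMM44 (edgeR adjusted p = 0.178) and HSPD1 (0.0546) were lost. Each of the other 24 h and 6 h libraries ended at least 1 of these calls when left out, and between 4 and 6 members were then called.

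In DMSO, no member was called between the HK2 knockout and wild type cells or between the PGP knockout and wild type cells, against 0.00861% and 0.0% of all genes. At an unadjusted p below 0.05 there was 1 member in the first of these edgeR comparisons and 2 in the second, out of 606 and 648 of the 11610 genes. In the HK2 knockout the members' differences lay between -0.28 and 0.20, with 95% intervals of -0.29 to 0.29 for LONP1 and -0.25 to 0.17 for HSPD1. In the PGP knockout the differences lay between -1.53 and 0.39, with 95% intervals of -0.24 to 0.35 for LONP1 and -0.24 to 0.18 for HSPD1. The lowest was that of PHB1 (-1.53, 95% interval -2.89 to -0.17, edgeR adjusted p = 0.850), which had few counts. DNAJC15, picked out after its values were seen, had 9.90, 7.44 and 7.46 CPM in the PGP knockout and 16.3, 16.9 and 19.1 CPM in wild type cells, with no overlap. Its difference of -1.09 ± 0.23 was not called by edgeR (adjusted p = 0.294) but was with DESeq2 (0.0407) and in edgeR with no low-count filter (0.00268). The 24 h response of the knockouts was not called as different from that of wild type cells for any member, against 0.0% of all genes for each knockout. At an unadjusted p below 0.05 there were 0 members for the HK2 knockout and 1 for the PGP knockout in edgeR, out of 267 and 221 genes. For LONP1 the difference in response was -0.03 (95% interval -0.43 to 0.37) in the HK2 knockout and -0.02 (-0.42 to 0.38) in the PGP knockout. For HSPD1 it was -0.01 (-0.31 to 0.28) and 0.08 (-0.22 to 0.38), and for HSPE1 -0.01 (-0.48 to 0.46) and -0.10 (-0.57 to 0.37). On simulated data for the HK2 knockout response, the same fit recovered 40 of 50 genes that differed 4-fold and 6 of 50 differing 1.5-fold. Small differences in response would thus be missed. The simulation changed 50 genes at each fold, while no gene was called in the data, and more changed genes make the adjusted threshold easier to pass. Recovery of a lone gene may thus be lower.

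Among the regulators linked to the response, more were higher than lower. Of 10 tested, 5 were called higher, 1 lower and 4 not called in each of the 4 comparisons with DMSO. Of all genes, between 10.9% and 16.1% were called higher and between 11.1% and 15.4% lower. The regulator called lower differed by -0.55 at 6 h in wild type cells and by -0.49 in the PGP knockout. The genes named below were taken by smallest adjusted p and were all higher than in DMSO, so they do not stand for the whole list. ATF5 stood at 839, 1128 and 812 CPM at 6 h, 813, 836 and 862 CPM at 24 h, and 146, 173 and 195 CPM in DMSO in wild type cells. All treated libraries stood far above DMSO, and its log2 difference was 2.43 ± 0.15 at 6 h, 2.29 ± 0.15 at 24 h, 2.30 ± 0.15 in the HK2 knockout and 2.32 ± 0.15 in the PGP knockout (edgeR adjusted p between 4.3e-10 and 2e-09). DDIT3 was highest at 6 h, with 40.8, 57.8 and 64.3 CPM at 6 h, 22.6, 22.6 and 23.7 CPM at 24 h, and 6.06, 7.93 and 6.97 CPM in DMSO (2.96 ± 0.21 at 6 h and 1.71 ± 0.22 at 24 h). In the knockouts the second smallest adjusted p after ATF5 belonged to ATF4 in the HK2 knockout (1.27 ± 0.18) and to CEBPB in the PGP knockout (1.99 ± 0.25), both higher. DDIT3 was lower at 24 h than at 6 h (-1.24 ± 0.18, edgeR adjusted p = 5.2e-05).

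A further 29 genes of import and proteostasis were counted, of which 26 were tested. OMA1 is in this list and also among the regulators. Among these, 0 were called higher and 1 lower at 6 h, and 1 higher and 8 lower at 24 h in wild type cells, 1 higher and 7 lower in HK2 knockout cells, and 1 higher and 8 lower in the PGP knockout. In either direction this came to 3.85% of the list at 6 h and 34.6% at 24 h in wild type cells. Among all genes 22.0% and 29.8% were called, so the list's share was below that at 6 h and near it at 24 h. Most calls at 24 h were lower: 30.8% of the list in wild type cells, 26.9% in the HK2 knockout and 30.8% in the PGP knockout. Of all genes, 14.6%, 13.5% and 15.4% were called lower, so in that direction the list lay above all genes at 24 h. CHCHD4, which oxidises and so traps the small TIMM proteins, was lower at 6 h (-0.60 ± 0.13), at 24 h (-0.74 ± 0.13) and in the HK2 and PGP knockouts (-0.65 ± 0.13 and -0.79 ± 0.13). ROMO1, a small inner-membrane protein, was lower at 24 h (-0.57 ± 0.11, and -0.58 ± 0.11 in the HK2 knockout), and SAMM50, which inserts outer-membrane barrels, was lower in the PGP knockout (-0.76 ± 0.12), with edgeR adjusted p of 0.00044 or less in these. TIMM10B was higher at 24 h than in DMSO in wild type cells (0.55 ± 0.13, edgeR adjusted p = 0.0019), while its relative TIMM10 was lower. HSPA9, the HSP70 of the matrix, averaged 247 ± 13.6 CPM at 24 h and 247 ± 4.45 CPM in DMSO in wild type cells (SD, n = 3).

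Cytosolic chaperones driven by HSF1, the other factor linked to the response, were mostly lower as well. Of 13 tested, 11 were called lower at 6 h, and 12 at 24 h in each genotype, and none was called higher against DMSO. Among all genes, 11.1% were called lower at 6 h and between 13.5% and 15.4% at 24 h. Their median log2 difference was between -0.997 and -0.809. DNAJA1, a J-protein, was lower at 6 h (-1.98 ± 0.15, edgeR adjusted p = 3.8e-09), and HSPH1, a partner of HSP70, was lower at 24 h in wild type cells (-1.53 ± 0.12, 3.9e-09). HSP90AA1 was lower at 24 h in the PGP knockout (-1.19 ± 0.10, edgeR adjusted p = 1.2e-08).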

How the data were processed

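Total RNA was isolated with the Qiagen RNeasy kit and sequenced as Lexogen QuantSeq 3′ libraries, per the labels' protocols. The deposited values are raw counts per Ensembl gene that the authors made with bcl2fastq 2.20.0.422, HISAT2 and HTSeq on hg19, per the submitters' processing notes, and the strand setting is not given in the sources used here. Antisense and overlapping genes are therefore uncertain. Of 54042 genes, 51661 matched a symbol. The 40 members and the comparison lists were chosen with earlier results of these data known.

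Counts were tested with edgeR 4.0.16 in R 4.3.3: TMM scaling, filterByExpr by group (minimum count 10, minimum total 15), and a single quasi-likelihood model with 1 coefficient per group, to which all 21 libraries contributed. The common biological coefficient of variation was 0.149. No columns were left unmapped, and no 2 libraries were identical. Detection floors cover counting error only. Values in every library are given for HSPD1, HSPE1, LONP1, CLPP, CLPX and TIMM17A, for up to 3 called members per direction and comparison with the smallest adjusted p, and for the pairs TIMM17A/TIMM17B, GRPEL1/GRPEL2, TIMM8A/TIMM8B and DNAJC15/DNAJC19; TOMM40 and PMPCB were added after their values were seen. Lists are named by up to 2 genes with the smallest adjusted p, and TIMM10B and HSPA9 were added. Alternatives were DESeq2 1.42.0, RLE size factors in edgeR, omission of the low-count filter, a replicate block, the compared groups alone, and each library left out in turn. The partner ratios (pseudocount 0.5 counts) and their leave-one-out values were added after the data had been seen.

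What the replicate numbers mark is not given in the labels. In the PGP knockout, 24 h and DMSO libraries with equal numbers deviated together from their groups (correlations 0.164 to 0.247, all above 0.1). Any pairing there rests on the data and not on the design. In the other comparisons at least 1 pair was at or below 0.1, but single pairs reached higher. Replicate 3 of wild type cells at 6 h and in DMSO correlated at 0.347, and at 24 h and in DMSO at 0.236. The cutoff of 0.1 thus does not settle which groups were paired. The fit was tested on simulated data: for 24 h against DMSO in wild type cells it recovered 48 of 50 genes changed 4-fold and 10 of 50 changed 1.5-fold among 11610 genes, with 7 false calls. Fewer genes were changed there than the 3465 called in the data, so its recovery need not be that of the real comparison.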

Additional observations from a re-analysis of the deposited data

How the results depend on the processing

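LONP1, HSPD1 and HSPE1 kept direction and call under every alternative run in the 4 comparisons with DMSO, and the count of members called stayed within 1.5 times the reported one in each of these. Between 24 h and 6 h, 1 member was called with the compared groups alone, and 4 to 6 on leaving out a library, against 7. With DESeq2, and with no low-count filter, the comparison of DMSO-treated PGP knockout and wild type cells had 1 member called (DNAJC15), against 0. The replicate block gave 17 members at 6 h, 18 at 24 h and 20 in the HK2 knockout. In none of these did all same-numbered pairs of libraries correlate above 0.1. At 6 h the block added TIMM44, called higher, and DNAJA3, called lower. It added DNAJA3 at 24 h, and TIMM44, CLPX and TOMM5 in the HK2 knockout, all called lower. In the PGP knockout, where all same-numbered pairs correlated above 0.1, the block gave 20 against 17. It changed no other member's call there than those of CLPP, TOMM70 and PHB2. The shares of all genes called with the block in these comparisons are not given here, so the added calls were not set against them.

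With the compared groups alone the calls of TOMM5, TOMM34 and TIMM10 at 6 h and of TRAP1 at 24 h were lost (edgeR adjusted p = 0.0515, 0.146, 0.0703 and 0.0784); with no low-count filter, so were TOMM34 at 6 h (0.0603) and GRPEL1 at 24 h in wild type cells (0.112) and in the HK2 knockout (0.0661). TOMM34 at 6 h was also lost without DMSO replicate 1 (0.15) or 6 h replicates 1 or 3 (0.05 and 0.135), TIMM10 at 6 h without DMSO replicate 1 or 6 h replicate 1 (0.0649 and 0.0802), TOMM5 without DMSO replicate 3 (0.0953), and TIMM13 in the HK2 knockout without DMSO replicate 1 or 24 h replicate 3 (0.0516 and 0.0605). The cause of these changes was not tested.

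Reversals were all of uncalled values near 0. Between 24 h and 6 h, DNAJC19 was -0.000368 with DESeq2, -0.00047 with RLE size factors and -0.00214 with no low-count filter, against 0.00389. TIMM17B in the HK2 knockout was -0.00242 with no low-count filter, against 0.02. Leave-one-out ranges that cross 0 were -0.31 to 0.081 for DNAJC15 at 6 h, -0.016 to 0.26 for TIMM17B at 24 h, -0.060 to 0.068, -0.31 to 0.022 and -0.18 to 0.080 for TIMM17B, DNAJC19 and GRPEL2 in the HK2 knockout, and -0.057 to 0.22 for CLPX in the PGP knockout. Between 24 h and 6 h they were -0.27 to 0.0097 for TIMM8B, -0.19 to 0.12 for DNAJC19, -0.31 to 0.12 for GRPEL2, -0.20 to 0.0041 for CLPX and -0.19 to 0.13 for LONP1. For the differences in response, LONP1, HSPD1 and HSPE1 ranged over -0.13 to 0.068, -0.12 to 0.063 and -0.093 to 0.093 in the HK2 knockout, and over -0.10 to 0.075, -4.1e-05 to 0.12 and -0.25 to 0.00097 in the PGP knockout. The DNAJC15/DNAJC19 ratio change ranged over -0.052 to 0.080.

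Over all genes, the compared groups alone gave 1212 calls at 6 h (against 2556), 749 between 24 h and 6 h (1922), 17 for the HK2 knockout (1) and 2 for the PGP knockout (0) in DMSO, and 1 for the response of the PGP knockout (0). No low-count filter gave 59 and 96 in DMSO and 17 and 18 for the responses, DESeq2 23 and 5 in DMSO, and the replicate block 19 for the HK2 knockout in DMSO. In the further import list, 2 genes (no filter) or 3 (replicate block) were called at 6 h against 1, and 2 between 24 h and 6 h with the compared groups alone against 6; in the cytosolic chaperone list 0 were called there against 4.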
